A study of Mus musculus with 20 samples.

Results

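The 4 libraries labelled GEM-PNST, from tumors of the peripheral nerve sheath in genetically engineered mice, were set against one another gene by gene. They are 4 of the 20 RNA-seq libraries of the series. The others came from 4 paraspinal tumors, in subgroups 1 and 2 of 2 libraries each, and from 12 neurofibromas. All mice were C57BL/6J and carried floxed Nf1 on both chromosomes with the DhhCre transgene (Nf1fl/fl; DhhCre). The GEM-PNST and paraspinal mice were in addition heterozygous for the Ink4a/Arf deletion (Ink4a/Arf+/-), an allele that the neurofibroma mice did not carry. The labels record no drug and give no age. The desert hedgehog promoter drives Cre in the Schwann cell lineage, so other cells of these tumors keep an intact Nf1. The labels do not say whether each library is a separate mouse. The identifier of GEM-PNST library 2 begins like that of 1 paraspinal subgroup 1 library, and the identifiers of GEM-PNST libraries 1 and 4 end alike. The p-values below therefore measure the spread between these samples only. A gene was counted as measured when it reached 1 CPM, the count after scaling every library to the same total, in at least 1 of the 4 libraries, and 14555 of the 24062 genes in the table did. CPM were scaled by the trimmed mean of M-values (TMM), which sets library sizes so that most genes agree. For each gene the highest of the 4 CPM was divided by the lowest. Genes under 2-fold are called even here, and genes over 100-fold are called wide-ranging. A library under 3 counts was set to 3 counts in this ratio, which is then a lower bound where the library had 0.

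Schwann cells arise from the neural crest, and Sox10 holds them in that lineage while ErbB3 carries the axonal growth signal to them. Neurofibromin, the product of Nf1, switches Ras off, so its loss leaves Ras and the ERK pathway active. Nerve sheath tumors that progress often lose Schwann cell and myelin genes, gain mesenchymal ones, and contain macrophages, mast cells and other immune cells beside the tumor cells.

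The targeted genes came first. Nf1 (chr11:79339693-79581612, mm10) stood at 24.2, 17.7, 22.4 and 22.2 CPM in libraries 1 to 4, a ratio of 1.36 with a 95% counting interval of 1.19 to 1.56. It was one of the even genes. Its level on the scale shared with paraspinal was 20.8 to 27.8 CPM, below the 36.0 and 41.2 CPM of subgroup 2 and the 89.2 and 91.9 CPM of subgroup 1. That difference was -1.36 on the log2 scale (SE 0.36) and missed the threshold in edgeR's quasi-likelihood test with Benjamini-Hochberg adjustment over 16589 genes (adjusted p = 0.0502, and 0.0477 to 0.153 with 1 library left out). Counts over the whole gene include exons outside the floxed part, so they do not measure the deletion. Cdkn2a, the Ink4a/Arf gene (chr4:89274471-89294653), had 4.38, 0.426, 6.20 and 8.28 CPM, and the lowest value was that of library 2. The ratio was 19.4 (10.2 to 41.5). Its neighbour Cdkn2b (chr4:89306299-89311039), which encodes the p15 inhibitor of the cyclin D kinases, gave 24.1, 2.30, 45.1 and 61.8 CPM, again with library 2 below the rest. Neither gene passed the test against paraspinal (log2 difference -1.83, SE 0.81, adjusted p = 0.157 for Cdkn2a; -0.29, SE 0.81, adjusted p = 0.835 for Cdkn2b; edgeR).

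The 4 libraries differed in content, and total counts were 16282605 to 22218382. Library 1 was low in most Schwann cell markers, although its label names a nerve sheath tumor. In it, 11 of the 19 measured Schwann cell lineage genes were at 3 counts or fewer. The fibroblast genes Pdgfra, Lum and Dcn were at 1, 2 and 7 counts. Library 2 was also low in Schwann cell genes, with 7 of the 19 at 3 counts or fewer and the same 9 counts of Sox10 as library 1. In library 1 the dendritic cell and MHC class II genes summed to 115212 CPM, against 1741 to 18421 CPM in the others. Library 2 had the lowest sums of macrophage, T and NK cell, and dendritic cell and MHC class II genes. Library 3 held 35562 CPM of salivary gland genes, against 0.641 to 5.28 CPM in the others. In library 4 the ribosomal RNA gene Rn45s took 30.7% of the counts, against 0.371% to 0.753%. Xist, expressed from the inactive X chromosome, stood at 159, 194, 0 and 0.136 CPM, and the Y-linked Ddx3y at 0, 0, 15.3 and 19.6 CPM, so the libraries were of both sexes. The part of these features in each result below was not tested, and values for libraries 2 and 4 alone, an alternative chosen after seeing the data, are given beside most lists. In bulk RNA, fewer cells of a type and less RNA per cell cannot be told apart.

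Over all 14555 measured genes the median ratio was 3.23, with 25% of genes under 1.90 and 5% over 102. Even genes numbered 4095, or 28.1%, and 740 genes, or 5.08%, ranged over 100-fold. These shares are the background for the counts in the gene lists. Of the 20 lists in the plot of ratios by list, the PRC2 genes had the lowest median ratio (1.77) and the reference and cell cycle lists followed it, while the Schwann cell lineage genes had the highest (172). Leaving out libraries 1 and 3 raised the even genes to 8700 and lowered the wide-ranging ones to 60, with a median ratio of 1.59, and 2 libraries can span no more than 4. With 1 library left out the median over all genes was 2.09 to 2.78, which is the background for the list values without a library.

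**Figure D1:**
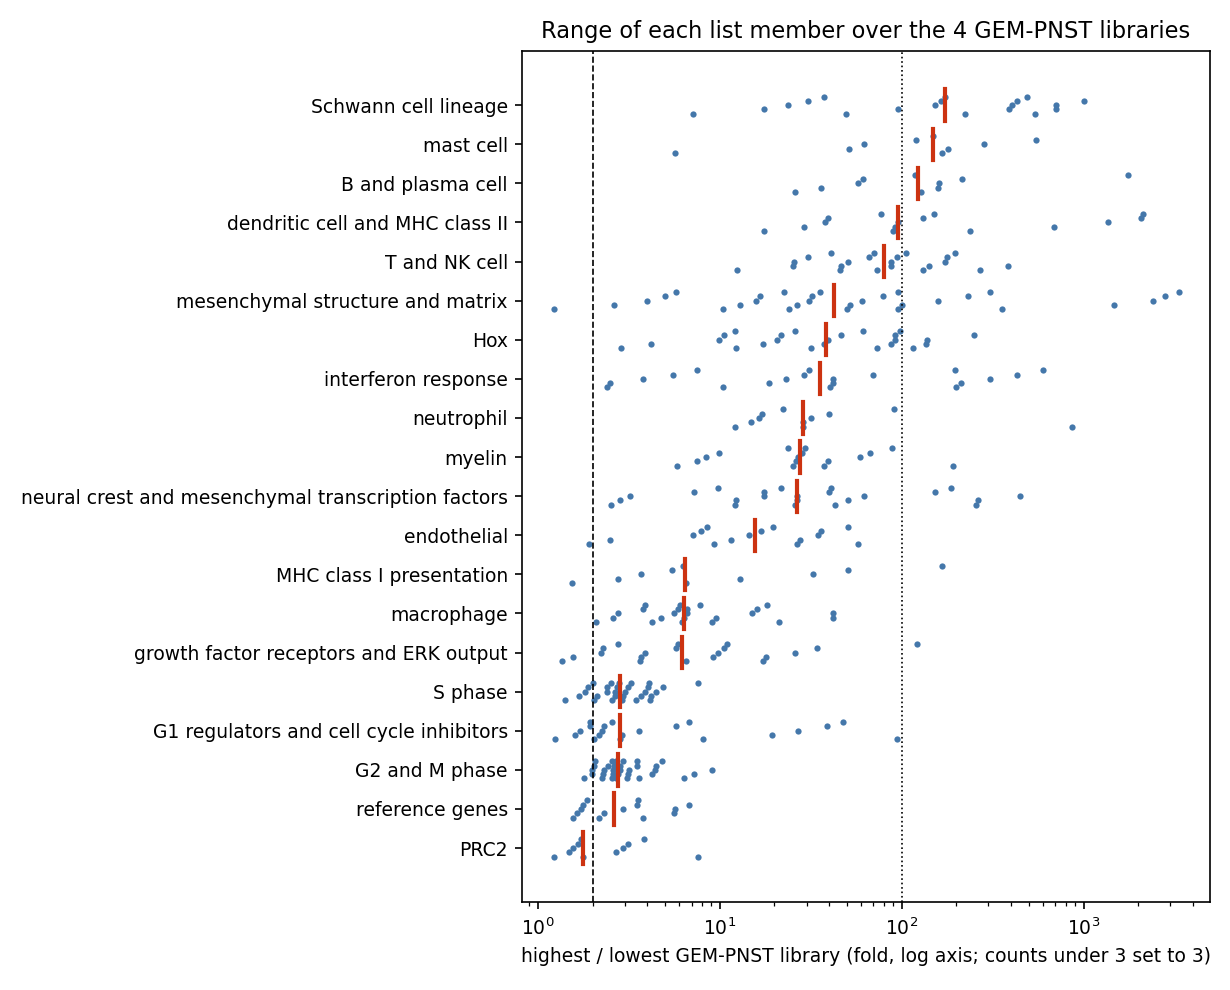
Ratio of the highest to the lowest of the 4 GEM-PNST libraries (log axis) for the measured members of 20 gene lists, ordered by the list median (red bar); each point is 1 gene, the dashed line marks 2-fold and the dotted line 100-fold. The medians of the PRC2 and cell cycle lists are 1.77 to 2.84, although single members lie higher, up to 94.7 among the G1 regulators. Members of the Schwann cell lineage, mast cell, B cell and several other lists reach above 100-fold.

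None of the 19 Schwann cell lineage genes was even, and 12 ranged over 100-fold. The highest value was in library 3 for 15 of them. Sox10, the transcription factor that maintains the lineage, had 9, 9, 8811 and 70 counts, or 0.481, 0.384, 385 and 4.75 CPM. Only library 3 came near the paraspinal libraries, which held 309 to 454 CPM on the scale shared with them. The Sox10 ratio was 1003 (528 to 2194). Erbb3 was likewise highest in library 3 and then in library 4, at 0.214, 0, 6.29 and 1.02 CPM. A few members, chosen after their values were seen, were high in library 2 as well. Ncam1, a cell adhesion molecule of immature and non-myelinating Schwann cells, was at 0.16, 80.1, 114 and 66.5 CPM. Gap43, a growth-associated protein also found in non-myelinating Schwann cells, was at 0, 86.4, 7.86 and 13.0 CPM. The crest factor Tfap2a stood at 0.107, 78.6, 16.0 and 38.5 CPM, and Sox2, a factor of immature Schwann cells, at 0.16, 35.8, 10.7 and 0.543 CPM. All 4 of these genes were highest in library 2 or 3 and lowest in library 1. Library 2 was the highest for 3 of the 19 and alone the lowest for 6, while library 1 was alone the lowest for 11. The narrowest members were Tfap2b (ratio 7.17), a crest factor highest in library 3, the adhesion molecule Nrcam (17.5) and the integrin Itga4 (23.6), and Itga4 was highest in library 1 (70.5 CPM) and lowest in library 2 (2.98 CPM).

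The spread of the Schwann cell list rested on library 3 more than on any other. Without it, 13 members were still measured, their median ratio was 13.2 and 4 ranged over 100-fold. Without library 1 the median was 57.6, and with libraries 2 and 4 alone it was 5.62 over 13 members, with 3 even. In the 4 paraspinal libraries the same list had a median ratio of 2.10. Against paraspinal, 3 of 19 members fell (Nrcam, Fabp7 and S100b; 7.69% of all genes tested fell) and 0 rose (2.48% of all), with a median log2 difference of -3.99 beside 0 over all genes. At an unadjusted p under 0.05, 1 was higher and 9 lower; DESeq2 called 1 higher and 9 lower, and limma-voom 0 and 12. Over all genes tested, 15.0% were higher and 17.7% lower at an unadjusted p under 0.05, DESeq2 called 1958 higher and 2753 lower, and limma-voom 763 and 2115. These are the background for such counts in every list below. The number that fell depended on single libraries: it was 0 without GEM-PNST library 4 and 13 without library 3, the one with high Sox10.

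Of the 17 myelin genes, which encode the sheath proteins and the factors that switch them on, 16 were measured. None was even, 1 ranged over 100-fold, and the median ratio was 27.7. It was 9.95 without library 1, 11.1 over 12 genes without library 3, and 2.80 with 5 of 12 even in libraries 2 and 4 alone. Pou3f1, which starts the promyelinating step, was the widest at 0.16, 0.511, 30.6 and 1.49 CPM (ratio 191, 65.1 to 929). Pmp22, a myelin membrane protein that fibroblasts also express, varied least at 46.8, 42.2, 247 and 57.9 CPM, a ratio of 5.85 (5.47 to 6.27). Library 3 was thus the highest for both genes. It was still below every paraspinal library for Pmp22, which stood at 1550 to 3982 CPM there. The log2 difference was -4.64 (SE 0.75, adjusted p = 0.0104, edgeR). Prx, a protein that anchors the myelinating Schwann cell to its basal lamina, fell from 503 to 1644 CPM in paraspinal to 0.307, 11.3, 11.4 and 4.35 CPM (log2 difference -6.94, SE 1.13, adjusted p = 0.0104, edgeR).

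In all, 13 of the 17 myelin genes tested fell and 0 rose, with a median log2 difference of -5.75. At an unadjusted p under 0.05 there were 16 lower and 0 higher, and DESeq2 and limma-voom called 16 and 17 lower and 0 higher. The count that fell was 6 without 1 of the subgroup 1 libraries (replicate 2) and 16 without GEM-PNST library 3. Summed myelin CPM were 113 to 674 in GEM-PNST and 8359 to 19589 in paraspinal. Markers of sensory neurons moved with them: their sum was 74.5 to 441 CPM in GEM-PNST and 5883 to 8966 CPM in paraspinal, and 17 of 20 fell, with 0 rising (edgeR; 19 lower and 0 higher at an unadjusted p under 0.05, and 19 and 0 with both DESeq2 and limma-voom). Whether less nerve tissue in the sample accounts for the myelin difference was not tested.

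Of 26 transcription factors of the neural crest and of mesenchymal states, 23 were measured, 0 were even and 5 ranged over 100-fold (median 26.5). Library 1 alone was lowest for 18 of them. Sox4, a factor of crest progenitors, had 0.534, 239, 26.3 and 26.6 CPM (ratio 447, 243 to 932). Twist2, which drives dermal and mesenchymal fates, had 0.481, 124, 2.88 and 78.3 CPM, high in libraries 2 and 4. Meox2, a mesodermal homeobox factor, had 3.20, 0.213, 56.3 and 8.35 CPM, and here library 2 was lowest. Sox9, a crest and cartilage factor, was at 0, 24.2, 8.86 and 24.6 CPM. Without library 1 the list's median ratio was 4.13 with 4 even, and with libraries 2 and 4 alone it was 1.93 with 12 of 22 even.

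Runx1, best known in blood stem cells and also active in Schwann cell precursors, was the narrowest of these factors at 48.4, 123, 78.8 and 76.4 CPM, a ratio of 2.54 (2.36 to 2.74). On the shared scale all 4 libraries (55.6, 144, 89.5 and 92.4 CPM) lay above all 4 paraspinal libraries (30.7 to 42.6 CPM). The log2 difference was 1.39 (SE 0.31, adjusted p = 0.032, edgeR), a call kept in 3 of 8 fits with 1 library left out (adjusted p 0.0139 to 0.0969). Sox11 was the only member that fell, and the median difference of the list was 0.37.

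**Figure D2:**
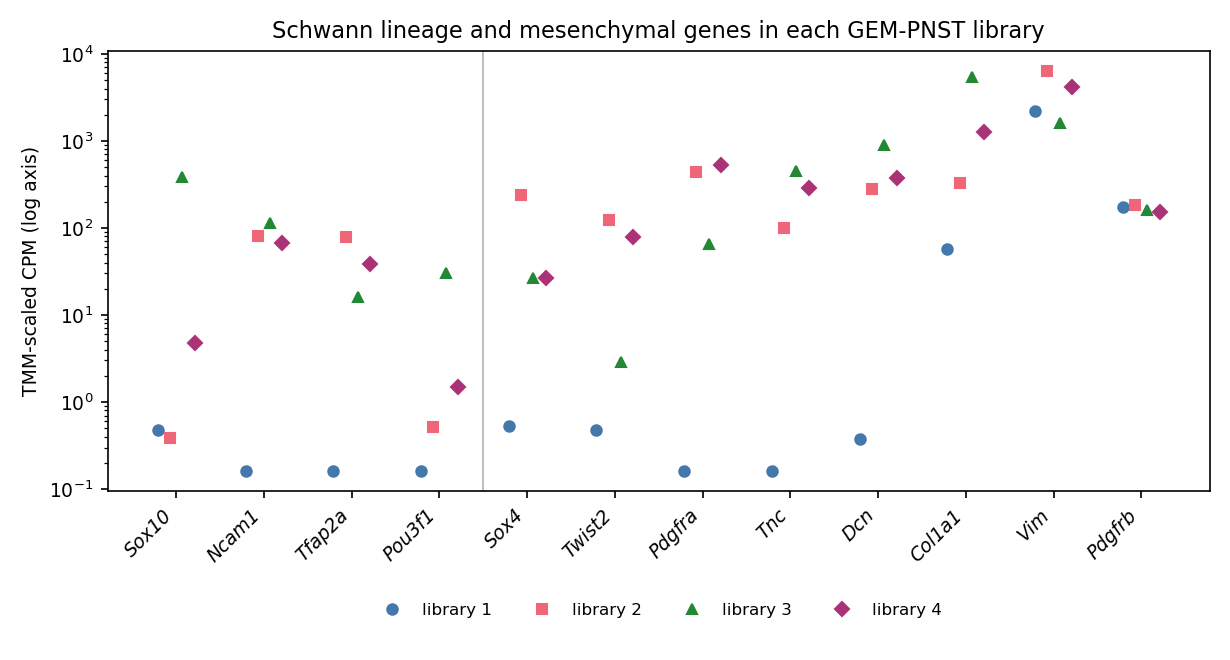
CPM (log axis) of lineage genes and mesenchymal genes in GEM-PNST libraries 1 to 4, with values under 3 counts drawn at 3 counts. Sox10 and Pou3f1 are high in library 3 alone, Pdgfra, Tnc and Dcn are near 0 in library 1, and Pdgfrb lies between 151 and 184 CPM in all 4.

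The mesenchymal structure and matrix list held 1 even gene and 9 wide-ranging genes among its 30 members, all measured, with a median ratio of 42.7. The even gene was Pdgfrb, the PDGF receptor of pericytes and fibroblasts, at 174, 184, 162 and 151 CPM (ratio 1.22, 1.16 to 1.29). Its partner receptor Pdgfra was among the widest: 1 count (0.0534 CPM) in library 1 and 434, 66.1 and 533 CPM in the others, with a ratio of 3325 and a counting interval of 1790 to 394042. The matrix glycoprotein Tnc, made around migrating crest cells and in wounds, had 0.16, 101, 447 and 289 CPM. The fibroblast proteoglycans were also near 0 in library 1, with Dcn at 0.374, 280, 899 and 370 CPM and Lum at 0.107, 1.41, 236 and 205 CPM. Library 2 separated these proteoglycans, since it held Dcn but little Lum.

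Other members were present in all 4 libraries. The intermediate filament gene Vim was at 2193, 6394, 1605 and 4204 CPM, and library 1 was not its lowest. S100a4, a calcium-binding protein of fibroblasts and macrophages, was at 272, 629, 600 and 716 CPM. The fibrillar collagen Col1a1 was at 56.7, 332, 5445 and 1273 CPM and Fn1, fibronectin, at 47.8, 2280, 768 and 2484 CPM. Library 1 alone was lowest for 26 of the 30 genes. Without it 4 members were even, 1 ranged over 100-fold and the median was 4.52, and with libraries 2 and 4 alone 17 were even at a median of 1.94. In paraspinal the list had a median ratio of 3.68. None of the 30 passed edgeR's test against paraspinal in either direction, 0 had an unadjusted p under 0.05, and DESeq2 and limma-voom called 0, with a median log2 difference of 0.12.

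Of 16 epithelial genes, 12 were measured, 0 even and 2 wide-ranging, with a median ratio of 24.7. In libraries 2 and 4 alone 5 were measured, at a median of 3.92. Krt18, a keratin of simple epithelia, was found in every library, at 141, 289, 11.8 and 72.1 CPM (ratio 24.4, 21.6 to 27.7). Paraspinal libraries held 0 to 0.0733 CPM of it. The log2 difference was 11.97 (SE 1.38, adjusted p = 0.00302, edgeR), and the call held in 8 of 8 fits with 1 library left out. Its partner keratin Krt8 was at 1.07, 6.61, 8.91 and 604 CPM, high in library 4 alone, against 0 to 0.183 CPM in paraspinal (log2 difference 11.68, SE 2.74, adjusted p = 0.0363, edgeR, kept in 3 of 8 fits). Epcam, an adhesion molecule of epithelia and of some dendritic cells, was instead highest in library 1, at 84.6, 0.128, 14.5 and 0.407 CPM. Cdh1 and Ocln, the cadherin and a tight junction protein of epithelia, fell against paraspinal, calls kept in 1 and 4 of 8 fits.

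The cell cycle lists had no wide-ranging member, where 5.08% of all genes were wide-ranging. Of the 30 S phase genes, all measured, 4 were even, a smaller share than the 28.1% of all genes. Their median ratio was 2.84, beside 3.23 over all genes. The clamp loader subunit Rfc2 was the narrowest at 68.5, 49.0, 55.4 and 48.5 CPM (1.41), followed by E2f1 (1.70), the activator of S phase genes. At the other end Ccne2, a cyclin of S phase entry, had 1.60, 0.852, 1.70 and 6.45 CPM. The helicase subunit Mcm3 had 126, 26.0, 40.3 and 39.8 CPM. Library 1 was the highest for 24 of the 30, and without it 20 were even at a median of 1.84. Scaling by library totals alone gave 10 even S phase genes and 12 even G2 and M phase genes, so these counts depended on the scaling. With Rn45s and Malat1 left out of the scaling there were 4 and 1.

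Against paraspinal, 8 of the 30 S phase genes rose and 0 fell, with a median log2 difference of 1.73. They included Mcm2, Mcm5, Mcm6 and Mcm7, subunits of the replicative helicase, and the licensing factor Cdt1. Mcm6 stood at 133, 86.4, 51.7 and 102 CPM against 17.4 to 36.4 CPM (log2 difference 1.89, SE 0.37, adjusted p = 0.0202, edgeR). The summed level was 2113, 927, 880 and 1217 CPM, above the 287 to 636 CPM of all 4 paraspinal libraries. The count was unstable: leaving out 1 paraspinal library took it to 0 in 3 of 4 cases and to 10 in the case of subgroup 2 replicate 1, and it was 4 without GEM-PNST libraries 1 and 3. DESeq2 called 24 higher and limma-voom 16, and 25 were higher at an unadjusted p under 0.05.

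All 33 genes of the G2 and M phase list were measured and 3 were even, again a smaller share than the 28.1% of all genes. The median ratio was 2.75. Library 3 alone was lowest for 26 of them. Top2a, the topoisomerase that untangles sister chromatids, was at 130, 108, 67.1 and 133 CPM (ratio 1.98, 1.86 to 2.12), the kinetochore subunit Nuf2 at 24.6, 18.6, 14.9 and 29.6 CPM (1.98), and the phosphatase Cdc25c had a ratio of 1.79. The mitotic kinase Cdk1 stood at 129, 124, 55.9 and 116 CPM and its cyclin Ccnb2 at 53.6, 49.1, 20.6 and 51.0 CPM. Mki67, which coats mitotic chromosomes, varied more at 188, 44.4, 60.9 and 103 CPM (4.23). The widest was Anln, an actin-binding protein of the cleavage furrow, at 9.40, 52.8, 21.5 and 85.3 CPM (9.08). Without library 3, 15 were even at a median of 2.07, and with libraries 2 and 4 alone 28 were even at 1.57.

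In paraspinal 1 of these genes was even and their median ratio was 7.71. Their summed level was 161 and 168 CPM in paraspinal subgroup 1, 768 and 361 CPM in subgroup 2 and 2334, 1482, 895 and 2039 CPM in GEM-PNST. No GEM-PNST library fell to the highest paraspinal one. By edgeR 3 rose and 0 fell, with a median log2 difference of 2.23; 32 were higher and 0 lower at an unadjusted p under 0.05 (15.0% and 17.7% of all genes), and DESeq2 called 31 higher and limma-voom 26. Plk1, the kinase of spindle assembly, was at 62.5, 57.8, 23.1 and 64.7 CPM against 1.89 to 16.4 CPM (log2 difference 2.92, SE 0.74, adjusted p = 0.0444), and the centromere proteins Cenpa and Cenpe were the other 2. Leaving out paraspinal subgroup 2 replicate 1, the library with 768 CPM, gave 22 calls, and the fewest with 1 library left out was 0.

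Genes of this phase are known to share promoter elements, so their promoters were read from the RefSeq table of GRCm38.p6. It held 30 promoters for 28 of the 33 genes, each reaching from 250 bases before to 50 after the start. CCAAT, the NF-Y box, and TTTGAA, the cell cycle homology element, were searched on both strands. CCAAT was in 24 of the 30 (80%), TTTGAA in 24 (80%) and both in 21 (70%). Of all 32851 promoters in the table, 37.4%, 17.9% and 6.95% held them, and matches overlapped in 1 of the 30. A match is a description of the sequence and does not show a bound site. The 3 promoters shown belong to the most even members with 1 promoter entry holding both motifs, and give the 250 bases before the start, 5′ to 3′ along the gene, with the motifs on either strand in capitals. All 3 genes lie on the minus strand, at chr11:99024190-99024439 for Top2a, chr10:69352913-69353162 for Cdk1 and chr9:70421555-70421804 for Ccnb2.
Top2a: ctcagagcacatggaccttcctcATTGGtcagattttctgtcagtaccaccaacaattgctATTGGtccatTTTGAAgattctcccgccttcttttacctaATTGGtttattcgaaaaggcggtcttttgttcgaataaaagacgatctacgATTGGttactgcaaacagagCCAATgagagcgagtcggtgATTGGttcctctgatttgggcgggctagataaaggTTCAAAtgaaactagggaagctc
Cdk1: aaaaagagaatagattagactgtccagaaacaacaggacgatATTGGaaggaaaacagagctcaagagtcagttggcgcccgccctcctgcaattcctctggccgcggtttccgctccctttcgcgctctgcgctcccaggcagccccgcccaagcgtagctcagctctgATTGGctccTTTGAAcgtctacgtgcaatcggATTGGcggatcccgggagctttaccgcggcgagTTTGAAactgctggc
Ccnb2: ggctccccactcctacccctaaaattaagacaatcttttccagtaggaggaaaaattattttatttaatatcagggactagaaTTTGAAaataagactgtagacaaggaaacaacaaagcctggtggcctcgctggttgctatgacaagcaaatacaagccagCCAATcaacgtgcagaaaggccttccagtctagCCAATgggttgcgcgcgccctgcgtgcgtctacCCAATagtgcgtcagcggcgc
The Top2a stretch held 6 CCAAT and 2 TTTGAA matches, that of Cdk1 3 and 2, and that of Ccnb2 3 and 1.

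The 21 regulators of G1 and inhibitors of the cell cycle had 5 even members, beside 28.1% of all genes, and a median ratio of 2.82. Rbl2, the p130 pocket protein, was at 25.8, 32.2, 32.0 and 26.5 CPM (1.25), and Ccnd1, the D-type cyclin downstream of Ras, at 385, 303, 590 and 548 CPM (1.95). Its paralog Ccnd2 ranged from 0.908 CPM in library 1 to 85.9 CPM in library 3, at 0.908, 10.4, 85.9 and 43.4 CPM (94.7). The Myc family also split: Myc was at 87.0, 55.1, 24.2 and 73.5 CPM, Mycl at 80.8, 1.70, 16.2 and 5.70 CPM and Mycn at 0.0534, 1.24, 4.28 and 6.24 CPM. Myc and Trp53, the p53 gene (185, 205, 88.2 and 155 CPM), were the 2 of 21 that rose against paraspinal (log2 differences 1.87, SE 0.46, adjusted p = 0.0406, and 1.43, SE 0.36, adjusted p = 0.0423, edgeR), and 0 fell. At an unadjusted p under 0.05, 5 were higher and 1 lower, where 15.0% and 17.7% of all genes were, and DESeq2 called 4 and 1 and limma-voom 3 and 1. Each of the edgeR calls was kept in 1 of 8 fits with 1 library left out.

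Among immune lists the macrophage genes had the lowest median ratio over the 4 libraries, close to the 6.41 of MHC class I presentation. None of the 23 measured of 24 was even and none ranged over 100-fold, with a median ratio of 6.38. In libraries 2 and 4 alone the median was 3.34 with 3 even, above MHC class I presentation (2.11) and interferon response (1.95). The Fc receptor chain Fcer1g was at 307, 146, 290 and 265 CPM (2.10), and the complement gene C1qb at 432, 492, 1056 and 1125 CPM (2.60). Csf1r, the receptor that macrophages need to survive, was at 120, 104, 331 and 643 CPM. Cx3cr1, the fractalkine receptor of resident and nerve-associated macrophages, was at 3.58, 6.69, 114 and 151 CPM, and Lyz2, lysozyme, at 2995, 165, 1162 and 1771 CPM. Libraries 1 and 2 were thus low for Cx3cr1 and library 2 alone for Lyz2. Summed macrophage CPM were 10446, 2497, 6840 and 8710. On the scale shared with paraspinal, library 2 (2930 CPM) lay inside the paraspinal range of 833 to 3550 CPM and the other 3 above it. Against paraspinal 0 of 23 passed in either direction in edgeR, with a median log2 difference of 1.69. At an unadjusted p under 0.05 there were 14 higher and 0 lower; DESeq2 called 11 higher and limma-voom 1, and edgeR called 3 without GEM-PNST library 2.

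T and NK cell genes were wide-ranging, with 0 even and 8 over 100-fold of 22 and a median ratio of 80.0. Library 3 was the highest for 21 and library 2 alone the lowest for 20, with 15 members at 3 counts or fewer there. Cd4 was at 8.44, 1.49, 18.5 and 10.7 CPM and Cd8a at 8.12, 0.256, 22.2 and 10.1 CPM. Cd3g, a chain of the T cell receptor complex, was at 1.01, 0.0852, 34.4 and 5.29 CPM, and Nkg7, a granule protein of cytotoxic cells, at 3.15, 0.171, 65.2 and 10.4 CPM. Klrd1, an NK cell receptor, had 17.3 CPM in library 1, 0 in library 2, 25 in library 3 and 5.70 in library 4, so library 1 was above library 4. Summed CPM were 57.4, 7.67, 437 and 112. Without library 2 the median ratio fell to 23.3 with 0 over 100-fold, and without library 3 it was 25.6 with 1 of 19. In libraries 2 and 4 alone it was 26.0. Against paraspinal, Cd4 (log2 difference 4.52, SE 0.94, adjusted p = 0.0253) and Cd8a (4.67, adjusted p = 0.0481) were the 2 of 21 that rose in edgeR and 0 fell. At an unadjusted p under 0.05, 17 were higher and 0 lower, and DESeq2 called 17 and limma-voom 1. Leaving out library 2 gave 7 calls and leaving out others as few as 0.

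B cell and plasma cell genes had 6 wide-ranging members of 10 measured and a median ratio of 123. Without library 2 there was 1 at a median of 38.1, without library 1 there were 4 at 66.8, and without library 4 there were 2 of 7 at 22.9. In libraries 2 and 4 alone 4 of 10 were wide-ranging at a median of 60.8. Library 1 stood apart for Fcrla (298, 0.171, 12.6 and 7.26 CPM) and for Cd22 (238, 1.11, 6.77 and 16.4 CPM), although library 4 was the highest for 8 of the 10. Mzb1, a plasma cell chaperone, was at 1.23, 0.341, 4.85 and 12.4 CPM and rose against paraspinal (log2 difference 5.50, SE 1.22, adjusted p = 0.0307, edgeR, kept in 3 of 8 fits), the 1 call of 9 tested (6 at an unadjusted p under 0.05, 5 with DESeq2 and 1 with limma-voom).

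Among 15 genes of dendritic cells and MHC class II there were 7 wide-ranging and 0 even ones, with a median ratio of 95.8. Library 1 was the highest for 13 of the 15, and library 2 alone the lowest for 13. The median was 13.9 with 4 wide-ranging without library 1, 18.0 with 2 without library 2, and 5.09 with 0 in libraries 2 and 4 alone. The invariant chain Cd74 was at 31492, 802, 6503 and 2962 CPM and H2-Aa, an MHC class II chain, at 26546, 277, 3598 and 1500 CPM. Markers of the type 1 conventional dendritic cell were also highest in library 1: Xcr1 was at 270, 0, 39.6 and 3.66 CPM and Clec9a at 265, 0, 67.1 and 5.63 CPM. The growth factor receptor Flt3 was at 173, 0.128, 58.6 and 8.08 CPM. Cd209a, of type 2 dendritic and monocyte-derived cells, was an exception at 0.214, 0.0426, 87.5 and 5.16 CPM. On the scale shared with paraspinal, the list summed to 132437, 2043, 20930 and 8983 CPM against 1159 to 3830 CPM, so library 2 lay inside the paraspinal range. In edgeR 0 of 15 passed (10 higher and 0 lower at an unadjusted p under 0.05; DESeq2 9 higher and limma-voom 0), and 7 rose without library 2.

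**Figure D3:**
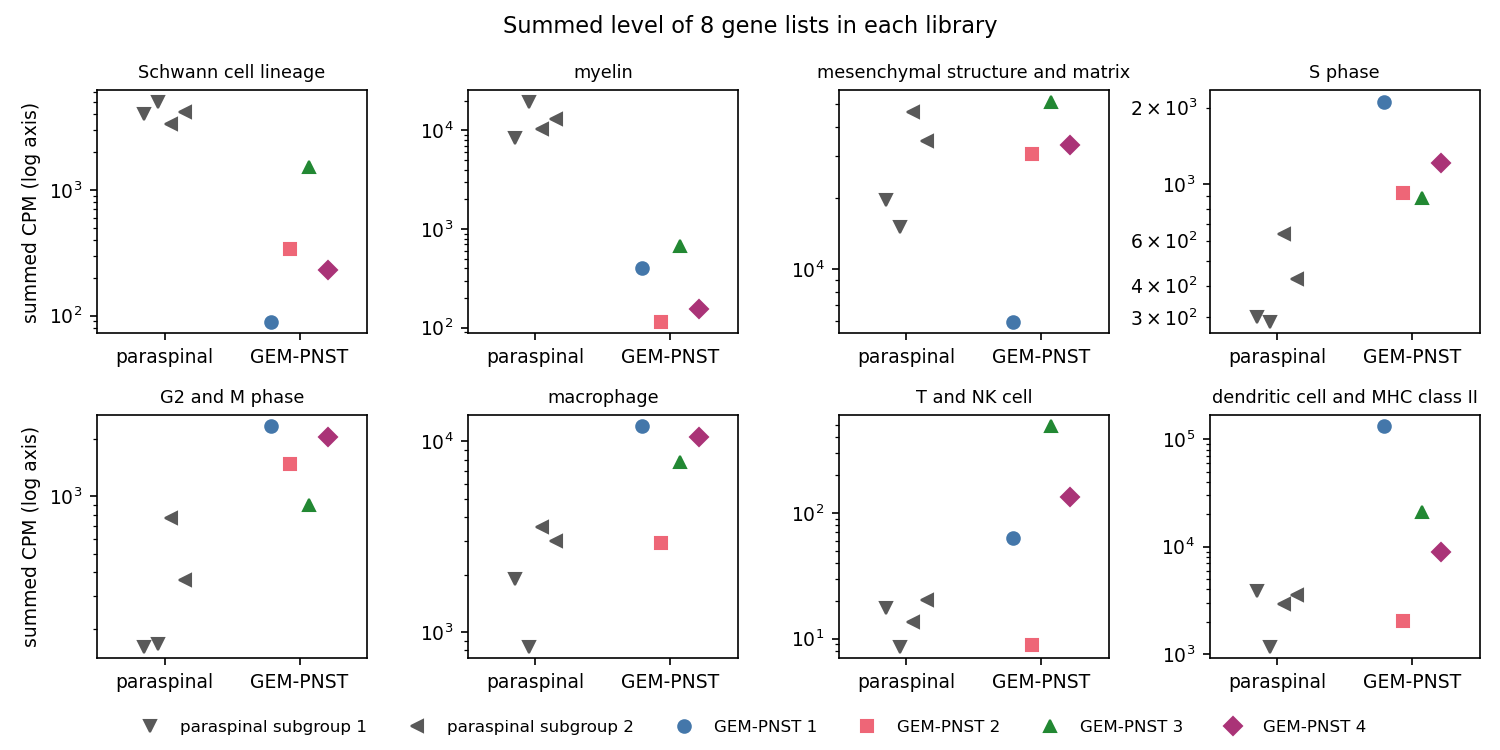
Summed CPM (log axis) of 8 gene lists in the 4 GEM-PNST libraries and the 4 paraspinal libraries, where down-triangles are subgroup 1 and left-triangles subgroup 2. The G2 and M phase sums of GEM-PNST, 895 to 2334 CPM, lie above all 4 paraspinal libraries, whereas the dendritic cell and MHC class II sums, 2043 to 132437 CPM, overlap them.

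All 10 MHC class I presentation genes were lowest in library 2 alone, yet their light chain B2m was even at 1289, 1267, 1957 and 1470 CPM (1.55, 1.52 to 1.57). The immunoproteasome subunit Psmb9 was at 799, 4.82, 131 and 32.5 CPM and the peptide transporter Tap1 at 688, 13.6, 187 and 50.1 CPM, both in the order of the class II genes. The list's median ratio of 6.41 went to 2.70 without library 2 and 2.11 in libraries 2 and 4 alone. Interferon response genes had another order, with library 3 the highest for 18 of 20 and library 1 alone the lowest for 15. Ifit3 stood at 0.267, 21.0, 81.4 and 29.9 CPM and the chemokine Cxcl9 at 3.68, 0.213, 128 and 18.1 CPM, whereas Stat2, which carries the type I interferon signal, was at 48.2, 58.0, 98.9 and 39.4 CPM. Without library 1 the median ratio of the interferon list went from 35.6 to 3.73, and its wide-ranging members from 6 to 1. In libraries 2 and 4 alone the median was 1.95 with 10 even. Neutrophil genes were highest in library 4 for 9 of 11, as with Mmp9 at 0.481, 4.90, 21.2 and 416 CPM. Their median ratio was 28.7, and without library 4 it was 14.4 over 7 genes. Of 9 measured mast cell genes, 6 ranged over 100-fold, but 1 without library 1, 2 without library 4, and 1 in libraries 2 and 4 alone. Kit, the mast cell growth factor receptor, was at 48.4, 0.171, 15.2 and 20.6 CPM and Gata2, a factor of mast and progenitor cells, at 0.16, 88.0, 7.16 and 13.1 CPM, so these genes did not share an order.

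The 11 PRC2 genes, subunits and partners of the complex that methylates histone H3 at lysine 27, had 6 even members and a median ratio of 1.77. This count was 6 or 7 with any 1 library left out and 7 in libraries 2 and 4 alone. Over all genes the even count rose in these settings, from 4095 to between 4891 and 6852, and to 8700 of 13482. In libraries 2 and 4 alone the PRC2 median was 1.81, above the 1.59 of all genes. In paraspinal 7 of the 11 were even at a median of 1.75, beside 1.93 over all genes measured there. Aebp2 was at 47.5, 58.4, 54.3 and 48.0 CPM (1.23), Ezh1 had a ratio of 1.48 and the histone chaperone Rbbp4 of 1.56. The core subunits Suz12 (25.9, 10.4, 16.5 and 28.0 CPM) and Eed (65.6, 17.2, 29.3 and 32.6 CPM) were not even, and each was lowest in library 2. Jarid2, an accessory subunit, was at 63.8, 8.44, 26.3 and 18.2 CPM (7.56). Ezh2, the methyltransferase of dividing cells, was even at 45.3, 34.0, 26.2 and 30.3 CPM (1.73), and on the shared scale all 4 libraries (29.8 to 52.1 CPM) lay above paraspinal (10.2 to 23.7 CPM). It was the 1 of 11 that rose (log2 difference 1.35, SE 0.35, adjusted p = 0.0461, edgeR, kept in 2 of 8 fits), and 0 fell. At an unadjusted p under 0.05, 5 were higher and 1 lower, and DESeq2 called 2 and 1 and limma-voom 1 and 0.

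Of 39 Hox genes, which record position along the body axis, 24 were measured, 0 were even and 4 ranged over 100-fold (median 38.3). Library 4 was the highest for 15. Hoxc6 stood at 1.33, 0.469, 1.05 and 65.0 CPM and Hoxc8 at 1.28, 0.554, 0 and 32.6 CPM, while Hoxb2 was at 3.52, 10.1, 5.20 and 8.62 CPM. Without library 4 the median was 16.0 and 0 ranged over 100-fold, and without library 2 there was 1. In libraries 2 and 4 alone 4 ranged over 100-fold, 9 of 22 were even and the median was 7.34. Where each tumor grew is not given in the labels used here.

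Among 20 growth factor receptors and ERK output genes, 2 were even and 1 wide-ranging, with a median ratio of 6.19. The even members were the ERK-induced factor Etv5 (50.1, 50.1, 32.2 and 37.7 CPM, 1.56) and Nf1 itself, and the receptor kinase Axl followed at 387, 565, 512 and 866 CPM (2.24). Ntrk2, the BDNF receptor, was the widest at 0.0534, 1.70, 19.4 and 4.82 CPM, and the only one of 20 to fall against paraspinal, where it was 239 to 342 CPM (log2 difference -5.31, SE 1.29, adjusted p = 0.0397, edgeR, kept in 2 of 8 fits). Library 1 alone was lowest for 14 of the 20, and without it 9 were even at a median of 3.04. In libraries 2 and 4 alone 14 of 19 were even at a median of 1.62.

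Vessel and host tissue genes also differed between libraries. Of 16 endothelial genes 1 was even, Vwf at 42.0, 23.3, 38.9 and 44.9 CPM, and library 4 was the highest for 12, as with the junction gene Cldn5 at 1.01, 8.23, 16.1 and 58.6 CPM. The endothelial median ratio was 15.6, or 9.40 in libraries 2 and 4 alone. Skeletal muscle genes summed to 572, 110, 1181 and 377 CPM, and 9 of 17 measured ranged over 100-fold, as the myosin Myh1 at 0, 1.79, 69.5 and 38.1 CPM. Without library 1 only 1 of the 17 did, without library 3 4 of 16 did, and in libraries 2 and 4 alone 1 of 16. Paraspinal libraries were wider still for this list, with a median ratio of 193. All 9 measured salivary gland genes were highest in library 3, and without it 1 of them was still measured. Of the 14 reference genes, 5 were even, 10 without library 1 and 11 in libraries 2 and 4 alone. Gapdh, often used as a loading control, was not among them, at 370, 500, 74.1 and 159 CPM (6.75). The ribosomal protein gene Rplp0 was even at 3963, 3060, 2399 and 2130 CPM (1.86).

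The 740 wide-ranging genes were divided at the largest gap between their 4 values. In 233 of them library 1 alone was low, in 134 library 3 alone was high, in 102 library 2 alone was low, and in 74 library 1 alone was high. Library 4 alone was high in 25 and library 2 alone in 42. The lowest library had 3 counts or fewer in 468 of the 740 and 0 counts in 267, whereas 80 genes had at least 1 CPM in all 4. Even genes were at 1 CPM or more in all 4 libraries in 4073 of 4095 cases. The even genes took 21.9% to 30.6% of a library's counts, and the wide-ranging ones 3.81%, 6.08%, 11.8% and 36.4%, the last with Rn45s.

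**Figure D4:**
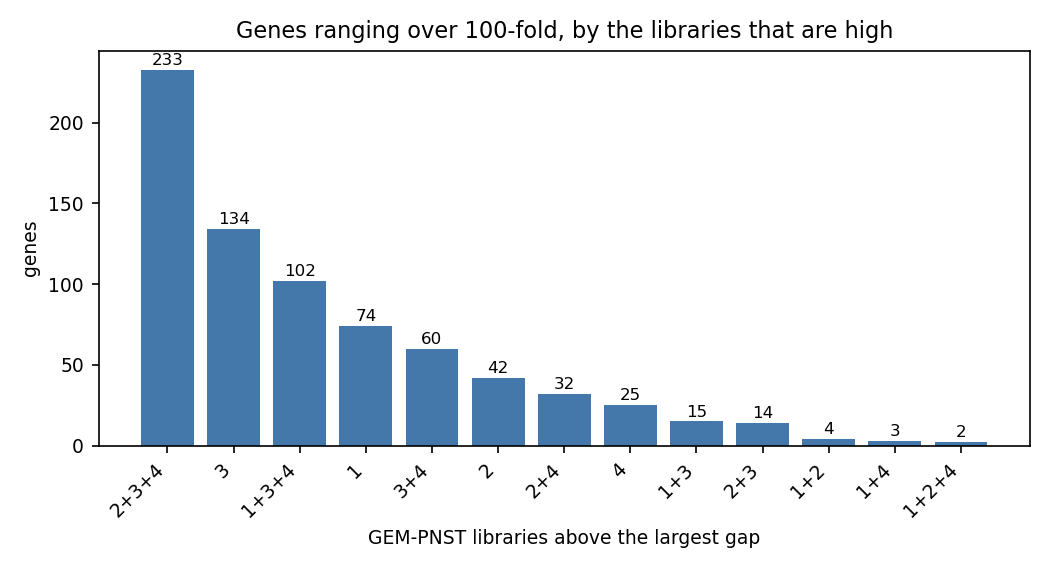
Number of genes ranging over 100-fold within GEM-PNST by the libraries that lie above the largest gap of their 4 values. The pattern with libraries 2, 3 and 4 high holds 233 genes and library 3 alone 134.

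The genes that set single libraries apart were of different kinds. In library 1 they were led by Cd207, the langerin of Langerhans and dendritic cells, at 1987, 2.09, 0.218 and 1.22 CPM. In library 2 they included the neuropeptide gene Npy (0.0534, 297, 0.306 and 0 CPM), the GABA synthesis enzyme Gad2 (0, 50.7, 0 and 0.0679 CPM) and the hyaluronidase Cemip (0, 163, 0.611 and 1.15 CPM). In library 3 they were salivary: Bpifa2 had 0, 0, 563917 and 1 counts, at least 192556-fold, and the amylase Amy1 had 0.641, 0.682, 3777 and 0.475 CPM. In library 4 they included Krt8, the cannabinoid receptor Cnr1 (0, 1.11, 0.393 and 119 CPM) and Dynap (0, 1.62, 0 and 133 CPM). Genes low in 1 library alone included the protease Mmp3 in library 1 (0, 121, 223 and 109 CPM), the myeloid lectin Clec12a in library 2 (368, 0.298, 143 and 35.5 CPM), and in library 3 the Ras exchange factor Rasgrf1 (9.29, 111, 0.0873 and 18.7 CPM) and Gpnmb, a glycoprotein of macrophages and melanocytes (231, 419, 1.83 and 65.0 CPM). No wide-ranging gene was low in library 4 alone. Near the 100-fold threshold, Ndst3 (99.7) and Fendrr (99.8) lay just below it and Il27ra and Rab39 (100.2 each) just above it. Dhx40, Lta4h and Nudt19 lay just below the 2-fold threshold and Npc1, Ier5 and Rhebl1 just above it, all 6 at 2.00 after rounding.

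Even genes were also compared with paraspinal. Of the 16589 genes tested 411 rose and 1275 fell, 10.2% in all, with a median log2 difference of 0. DESeq2 gave 1958 and 2753, a larger share higher. Among the 4095 even genes, all of them tested, 107 rose and 133 fell, and among the wide-ranging ones 6 rose and 4 fell. The shares over all genes tested were 2.48% higher and 7.69% lower. Even genes that rose included Limd2, an adaptor of integrin-linked kinase, at 125, 197, 182 and 167 CPM (log2 difference 2.15, adjusted p = 0.0123), and the macrophage Fc receptor Fcgr3 at 212, 144, 180 and 280 CPM (2.02, adjusted p = 0.0482). The nucleolar gene Npm1 (1.85, adjusted p = 0.0240) and the ribosomal protein gene Rps20 (2.17, adjusted p = 0.0235) also rose. Even genes that fell included Camk2a, a neuronal kinase, at 2.19, 3.15, 2.93 and 2.51 CPM (-4.25, adjusted p = 0.00273), Sez6l2 (-4.13, adjusted p = 0.00134), the neuropeptide Nmb (-3.15, adjusted p = 0.00504) and Rufy3, a neuronal polarity factor, at 20.6, 22.1, 28.6 and 23.5 CPM (-2.85, adjusted p = 0.00170). All these adjusted p are from edgeR. The call for Limd2 held in 8 of 8 fits with 1 library left out and that for Fcgr3 in 1 of 8. The sensory neuron sums given with the myelin genes moved with the genes that fell, and their part in them was not tested.

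The same ratio was taken in the other tumors, whose libraries were not used to choose these genes. Of the 4093 even genes measured in paraspinal, 3035 (74.2%) were even there, beside 52.8% of all genes measured there, and 0 ranged over 100-fold. Over the 12 neurofibroma libraries 2363 of 4085 (57.8%) were even, beside 32.9% of all. Of the wide-ranging genes, 644 were measured in paraspinal and 19 (2.95%) ranged over 100-fold there, beside 0.347% of all, and 43 of 675 (6.37%) did in neurofibroma, beside 1.15%. Seen from the other side, 40.8% of the genes even in paraspinal were even in GEM-PNST and 26.0% of the genes wide-ranging in paraspinal were wide-ranging in GEM-PNST. A ratio over 12 libraries spans more than one over 4.

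**Figure D5:**
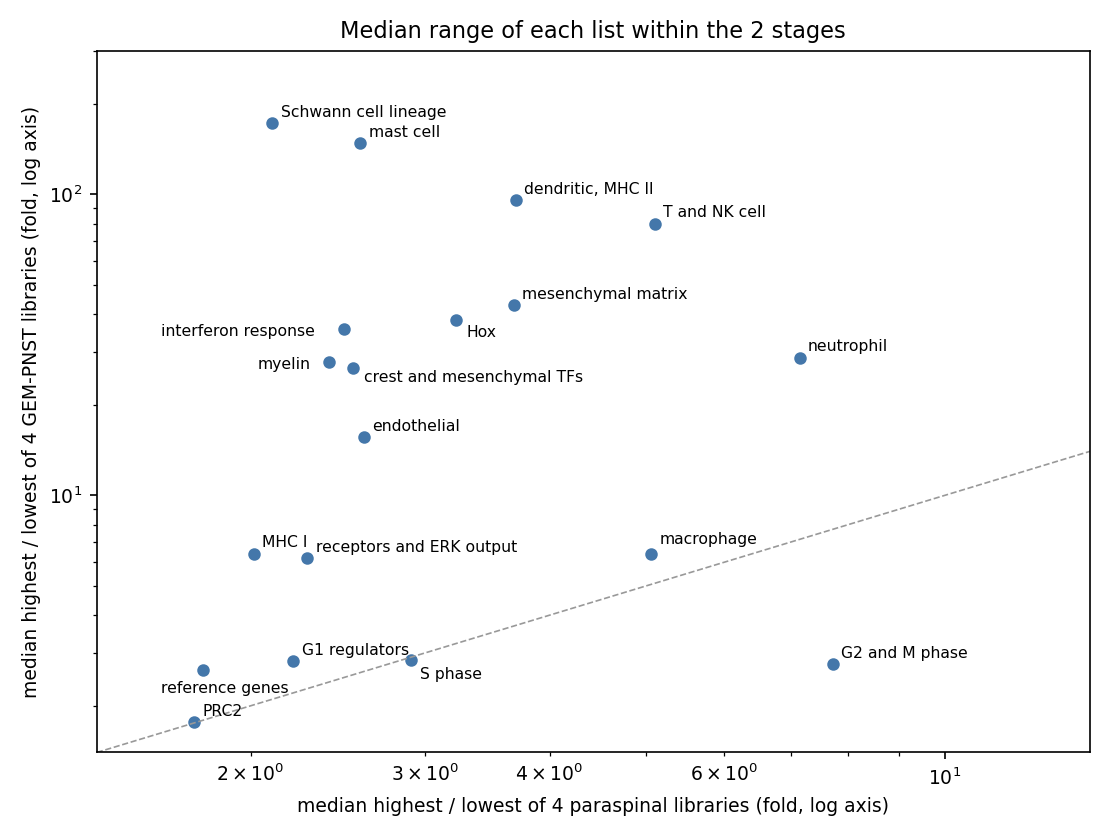
Median ratio of the highest to the lowest library for gene lists in the 4 GEM-PNST libraries against the 4 paraspinal libraries (both axes log; dashed line, equal ratios). Schwann cell lineage genes have 172 against 2.10, whereas G2 and M phase genes have 2.75 against 7.71.

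The difference in spread itself was tested with limma on the deviations of log2 CPM from the mean of each group of 4. It called 558 genes (3.36%), 285 more spread in GEM-PNST (1.72%) and 273 less spread (1.65%). Of the listed genes those more spread in GEM-PNST included Sox2 and the myelin genes Cnp and Gldn, the matrix genes Lum, Lox and Thbs1, and Cx3cr1, the endothelial receptors Kdr and Tek and Hoxb5, Hoxb6 and Hoxb7. Nf1 and the salivary gene Smr2 were the listed genes less spread (difference -0.56, limma adjusted p = 0.0432 for Nf1). The paraspinal deviations are from the mean of both subgroups, so a difference between the subgroups, such as that of Nf1 given above, counts as paraspinal spread in this test. None of the 33 G2 and M phase genes was called, although 11 were less spread and 1 more spread in GEM-PNST at an unadjusted p under 0.05, with a median difference of -0.70 beside 0.18 over all genes tested. Over all genes, 18.8% were more spread and 9.16% less spread at that level. Of the 19 Schwann cell lineage genes, 12 were more spread and 0 less spread at that unadjusted level, with a median difference of 2.31. The test depended on its form: with squared deviations it called 0 genes (2382 at an unadjusted p under 0.05), and with 1 library left out 0 to 30. Those 0 to 30 were all less spread in GEM-PNST. None of the more-spread calls named above was kept in any fit with 1 library left out.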

How the data were processed

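The authors deposited a table of read counts per gene for the 20 libraries. Per the labels' protocols, total RNA came from the RNeasy Plus Micro kit and was turned into libraries with Nextera XT reagents. The submitters' processing notes name TopHat, HISAT2, featureCounts and the mm10 genome, with no versions. Whether counting used strand is not given in the sources used here, so reads of genes that overlap on opposite strands may be mixed. Reads of near-identical paralogs may be mixed as well. Per the labels, the GEM-PNST and paraspinal libraries were sequenced in 1 run and the neurofibromas in others, so run and tumor type cannot be told apart for neurofibroma. Of the GEM-PNST libraries, totals were 16282605 to 22218382 counts, and paraspinal totals were 18474071 to 24314222. No 2 GEM-PNST or paraspinal libraries agreed within sampling noise.

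CPM were scaled by TMM in edgeR 4.0.16 under R 4.3.3, over the 4 GEM-PNST libraries for the ratios and over 8 libraries beside paraspinal. Counting intervals (95%) cover counting error only. Evenness has no test in 1 group of 4. Levels were tested with edgeR's quasi-likelihood test over all genes passing its expression filter, and spread with limma 3.58.1 on absolute deviations; DESeq2 1.42.0, limma-voom, other scalings, filters and left-out libraries were alternatives. The scripts were tested on simulated data. The threshold was an adjusted p of 0.05.

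Gene lists and members were chosen with earlier results of these data known. Named genes were Nf1, Cdkn2a and Cdkn2b; the 3 lowest and 3 highest ratios of each list; up to 8 genes high and 5 low in each library alone; the 10 even genes with the largest rise and fall; and 3 genes on each side of each threshold. A selection of them is printed. Other list members, Rn45s and Malat1 were named after their values were seen.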

Additional observations from a re-analysis of the deposited data

Results flagged for a closer look

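For each of the 150 genes named, the 4 GEM-PNST values on the log2 scale were compared, and 14 had 1 library far from the other 3, by the ratio of the gap to the whole range in Dixon's test at the 95% level. Chance gives about 1 in 20 groups. The rule sets the gap against the range, so a library can stand apart by under 2-fold, as in the even genes Cdc25c and Sez6l2. By this rule library 3 lay below the others for Sez6l2 (1.48 CPM). It also lay below them for the G2 and M phase genes Cdk1 (55.9 CPM), Ccnb2 (20.6 CPM), Plk1 (20.3 CPM) and Cdc25c (5.54 CPM). It was far above them for the salivary genes Amy1 (3777 CPM) and Bpifa2 (24619 CPM). Library 1 was far below the others for Dcn (0.374 CPM), Ncam1 (0.16 CPM) and Mmp3 (0 CPM). Library 2 was far below them for Itga4 (2.98 CPM) and far above them for Npy (297 CPM) and Gad2 (50.7 CPM). Library 4 was far above them for Fendrr (12.8 CPM). Genes named for being high or low in 1 library alone were picked by the same values, so their place here adds nothing to that choice.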

How the results depend on the processing

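The ratios and counts of genes rest on 4 libraries of unlike content, and depth limits the lowest values: a library at 3 counts or fewer sets the lowest value of 468 of the 740 wide-ranging genes. Even genes numbered 6158 with no minimum CPM, 4891 to 6852 with 1 library left out and 8700 without libraries 1 and 3. Wide-ranging genes numbered 82 when 1 CPM was required in all 4 libraries, 1170 with a floor of 1 count, 280 to 647 with 1 library left out and 60 without libraries 1 and 3. The other scalings kept both counts within 1.5 times, at 3605 to 4095 even and 734 to 816 wide-ranging genes.

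Against paraspinal, edgeR's 1686 calls became 4711 with DESeq2 (1958 higher, 2753 lower), 2878 with limma-voom (763 and 2115), 507 to 2304 with 1 library left out and 61 against subgroup 2 alone (0 and 61). The lowest was without subgroup 1 replicate 2; without subgroup 1 replicate 1 it was 525, without GEM-PNST library 4 it was 708, without subgroup 2 replicates 1 and 2 it was 1104 and 783. Replicate numbers did not pair the libraries (correlations of -0.0553 to 0.0781 over the 2 shared numbers in each subgroup), and a fit with the replicate number as a block called 840 (91 higher, 749 lower). Other scaling, no filter and subgroup 1 alone gave 1688, 1510 and 1367. Of the 89 named changes, 86 passed the threshold. Direction and side of the threshold were the same for 87 with another scaling, 81 with no filter, 87 with limma-voom, 87 of 88 with DESeq2, 46 with the replicate block, 40 to 84 with 1 library left out, 69 without libraries 1 and 3, 57 against subgroup 1 alone and 14 against subgroup 2 alone. The direction of Cdkn2b, which did not pass, reversed to a log2 difference of 0.0282 without subgroup 2 replicate 2, 0.0984 without GEM-PNST library 2 and 0.53 against subgroup 1 alone, and ran from -0.79 to 0.0984 with 1 library left out. The spread test called 0 genes with squared deviations (2382 at an unadjusted p under 0.05), 0 with 1 CPM required in 4 libraries (4230), and 0 to 30 with 1 library left out. With 1 library left out, 0 genes were called more spread in GEM-PNST.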
